A study of Mus musculus with 6 samples.

Results

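Chromatin accessibility at the 9 members of the Pax gene family, *Pax1* to *Pax9*, was examined in ATAC-seq peak calls from 3 immortalized mouse cell lines. The members were chosen by name, and each was given a window of its gene body plus 10 kb on either side in mm9. The calls held 12 peaks in these windows, and Pax6-HIGH cells had 6 of them, out of 28024 peaks in all. Pax6-ON cells had 3 of 9821 and Pax6-OFF cells had 3 of 14022. A peak within 1 kb of any annotated transcript start of a member was called a start-site peak and every remaining peak in a window was called other.

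The lines are named after the activity of *Pax6*. The Pax6-HIGH line, β-TC3, came from a pancreatic beta cell tumour (insulinoma). The Pax6-ON line, MV+, goes back to lens epithelium of a wild-type C57BL6 mouse. The source of the Pax6-OFF line, RAG, was a kidney tumour (renal adenocarcinoma) of a BALB/c mouse. The strain of β-TC3 is not given in the sources used here, and strain cannot be told apart from the line. The labels give no treatment, and all were grown in the same medium. The methods state that the identity of the lines was not authenticated, and each tissue is represented by a single line. The lysis buffer added to the suspended cells held 0.2% NP40 for Pax6-ON cells and 0.1% for the other lines, so the detergent cannot be told apart from the line. Replicate libraries, 2 per line, were pooled in 1 call, so every value below has n = 1 per line, no replicate error and no test between lines.

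Pax proteins are transcription factors that bind DNA through a conserved paired domain, and some also carry a homeodomain. Vertebrate Pax genes fall into 4 subfamilies by sequence. *Pax4* and *Pax6* act in the endocrine pancreas, and *Pax6* also in the eye and brain. *Pax2*, *Pax5* and *Pax8* act in the kidney, the midbrain, B cells and the thyroid. *Pax1* and *Pax9* act in the vertebral column, the thymus and the teeth, and *Pax3* and *Pax7* in neural crest and muscle progenitors. In ATAC-seq a transposase inserts adapters into open DNA, and an open promoter usually appears as a peak at its start site, although an open promoter does not by itself mean that the gene is transcribed.

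Start-site peaks were found at *Pax6*, *Pax9* and *Pax2* and at no other member. A start-site peak was called for 1 of 9 members in Pax6-HIGH cells, which is 11.1%, against 46.4% of the 22367 protein-coding genes. It was called for 2 of 9 members, 22.2%, in Pax6-ON cells, where the share of all protein-coding genes was 21.4%. In Pax6-OFF cells it was again called for 2 of 9 members, where the share of all protein-coding genes was 36.1%. The members with such a peak were *Pax6* in Pax6-HIGH cells, *Pax6* and *Pax9* in Pax6-ON cells, and *Pax2* and *Pax9* in Pax6-OFF cells. Widening the question to any peak in the window added only *Pax3*, in Pax6-HIGH cells. That gave 2 of 9 members in each line, against 61.6, 30.6 and 48.9% of protein-coding genes in Pax6-HIGH, Pax6-ON and Pax6-OFF cells. The Pax windows offered more room for a peak than most, as 8 of the 9 exceeded the median window of protein-coding genes, which was 35.4 kb.

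**Figure D1:**
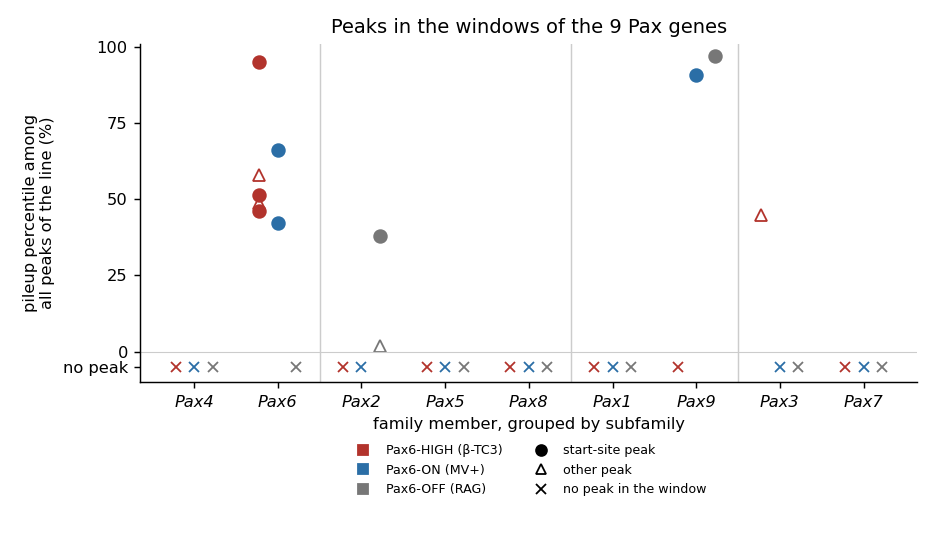
Pileup percentile (%) of every peak in the windows of the 9 Pax genes, among all peaks of the same line, with filled circles for start-site peaks, open triangles for other peaks and crosses where no peak was called. *Pax6*, *Pax2*, *Pax9* and *Pax3* carry the 12 peaks, and the strongest are those of *Pax6* in Pax6-HIGH cells (95.0) and of *Pax9* in Pax6-OFF cells (96.9).

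No member was open at its start in all 3 lines, a pattern seen in 17.5% of protein-coding genes. *Pax1*, *Pax3*, *Pax4*, *Pax5*, *Pax7* and *Pax8* had no start-site peak in any line, as did 49.5% of protein-coding genes. The patterns of the remaining members were rarer among all genes. *Pax6* was called in Pax6-HIGH and Pax6-ON cells alone, as were 519 genes in all (2.32%). *Pax9* was called in Pax6-ON and Pax6-OFF cells alone, which 126 genes were (0.563%), and *Pax2* in Pax6-OFF cells alone, which 554 genes were (2.48%). These shares describe all genes and are not a test of the family.

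Depth and signal differed between the calls, so pileups, the number of fragments stacked at a peak's summit, were compared within a line by rank and not between lines. The calls for Pax6-HIGH, Pax6-ON and Pax6-OFF cells rested on 100254099, 130955836 and 102223606 fragments. The weakest peak called had a pileup of 25, 30 and 25 fragments and the median peak had 54, 61 and 50 fragments, in the same order. A member without a peak was therefore not detectably open at this depth, and a site with fewer fragments than these was not called. Fold enrichment below divides the pileup by the background MACS2 used for the peak, and intervals on pileups are exact 95% Poisson intervals that cover counting error only.

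The line labels were set against marker genes of each tissue. Start-site peaks were called at 7, 4 and 1 of 16 beta cell genes in Pax6-HIGH, Pax6-ON and Pax6-OFF cells. These are shares of 43.8, 25 and 6.25%, against 46.4, 21.4 and 36.1% of all protein-coding genes, so beta cell genes were not called more often than genes at large in Pax6-HIGH cells. *Neurod1* and *Nkx2-2*, which encode endocrine transcription factors, and the secretory granule gene *Chga* were called in Pax6-HIGH cells alone. The insulin genes *Ins1* and *Ins2*, *Iapp* and *Pdx1* had no start-site peak in any line. Lens genes were called at 3, 2 and 2 of 11 (27.3, 18.2 and 18.2%), below the share of all genes in each line, and the lens crystallin gene *Cryaa* and the lens factor gene *Foxe3* in no line, so these markers did not set Pax6-ON cells apart. Kidney genes were called at 2, 1 and 3 of 13 (15.4, 7.69 and 23.1%), again below the share of all genes in each line, with *Cdh16* in Pax6-OFF cells alone. Genes of mesenchyme were called at 0, 1 and 0 of 5, and those of blood at 0 of 4 in each line, both below the share of all genes in every line.

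*Pax6* encodes a factor with both a paired domain and a homeodomain that is required for eye formation and for islet hormone genes. The gene (ENSMUSG00000027168.12) lies on the plus strand of chromosome 2 from 105509053 to 105543317 and has 29 annotated starts, the most of any member. Pax6-HIGH cells had 5 peaks in its window, 3 of them at starts, Pax6-ON cells had 2, both at starts, and Pax6-OFF cells had none within 191 kb of the window.

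The strongest *Pax6* peak lay over exon and UTR sequence and an internal start, 6.62 kb into the gene record by its Pax6-HIGH summit, and was called in both lines that have one. In Pax6-HIGH cells it ran from 105515016 to 105515896 with a pileup of 175 fragments (95% interval 150 to 203), 5.51-fold enrichment and a −log10 q of 67.5. It ranked 1384th of 28024 peaks, at the 95.0 percentile. The Pax6-ON peak spanned 105515470 to 105515807, with a pileup of 74 fragments (58.1 to 92.9), 4.94-fold enrichment and a −log10 q of 25.5, at the 66.3 percentile. It lay wholly inside the Pax6-HIGH peak, covered 38.4% of it, and had its summit 56 bp away. By the positions the paper gives, a fragment it targeted as a *Pax6* promoter overlaps the peaks of both lines. The distance between the lines in rank was wide by pileup and narrower by fold enrichment, where the percentiles were 79.0 and 69.9. The background MACS2 used for the peak was 30.9 fragments in Pax6-HIGH and 14.2 fragments in Pax6-ON cells. Pax6-ON cells had the same 14.2 fragments at their other *Pax6* peak, so that value may not be local to the site.

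A further shared *Pax6* peak lay 11.76 kb into the gene record by its Pax6-HIGH summit, within 1 kb of an internal start. It touched coding and UTR exons in Pax6-HIGH cells and lay in an intron in Pax6-ON cells. It had 51 fragments in Pax6-HIGH cells (105520427 to 105520976, fold enrichment 2.93, −log10 q 8.72, percentile 46.2). In Pax6-ON cells it had 56 fragments (105520531 to 105520991, fold enrichment 3.76, −log10 q 13.7, percentile 42.1). Its summits were 76 bp apart, and the peak was of middling strength in both lines. The 300 bp around its Pax6-HIGH summit are printed as a stretch of *Pax6* that was open in both lines, from the plus strand of mm9 at chr2:105520659-105520958, and capitals mark a short word related to CTCF sites.
*Pax6* second shared site: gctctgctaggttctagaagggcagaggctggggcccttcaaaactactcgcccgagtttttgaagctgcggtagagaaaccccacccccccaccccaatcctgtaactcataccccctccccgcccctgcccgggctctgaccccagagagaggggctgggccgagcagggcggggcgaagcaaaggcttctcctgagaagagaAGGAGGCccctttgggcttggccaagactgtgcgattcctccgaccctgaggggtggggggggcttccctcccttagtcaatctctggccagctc

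The 5′-most start of *Pax6* was open in Pax6-HIGH cells alone. The peak there ran from 105508327 to 105509066, held the annotated start at 105509053 and had 55 fragments, 3.3-fold enrichment, a −log10 q of 11.5 and a percentile of 51.4. In Pax6-ON cells the nearest peak to this start lay 6.42 kb away. With 9821 peaks kept in each line, the number called in Pax6-ON cells, this Pax6-HIGH peak was no longer called, so its absence from Pax6-ON cells cannot be told apart from the longer peak list of Pax6-HIGH cells. The remaining peaks of Pax6-HIGH cells lay upstream, in introns of the antisense transcript *Pax6os1*. The higher of them ran from 105499673 to 105501357 with 61 fragments, 3.04-fold enrichment, a −log10 q of 11.2 and a percentile of 57.9. The other had 53 fragments and a percentile of 48.9. Chromosome 2 was not raised in Pax6-HIGH cells, since sites common to the 3 lines had 0.867 times the autosomal median pileup there.

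The higher upstream peak is printed because it held 2 copies of TAATTA, the word bound by many homeodomain proteins, 12 bases apart from start to start. That word was present in 4.84% of all Pax6-HIGH peaks and in 6.9% of those away from starts. No other Pax window of 300 bp held it. The 300 bp around the summit are from the plus strand of mm9 at chr2:105500680-105500979, with the TAATTA words, an E-box word (CAGATG) and a CTCF-related word (AGGNGGC) in capitals.
*Pax6* upstream Pax6-HIGH site: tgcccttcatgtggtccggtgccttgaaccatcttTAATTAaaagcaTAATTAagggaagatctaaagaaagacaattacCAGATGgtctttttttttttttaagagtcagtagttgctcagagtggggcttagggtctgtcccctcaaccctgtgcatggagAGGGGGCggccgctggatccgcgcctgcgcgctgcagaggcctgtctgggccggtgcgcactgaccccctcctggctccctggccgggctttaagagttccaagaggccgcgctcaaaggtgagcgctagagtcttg

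**Figure D2:**
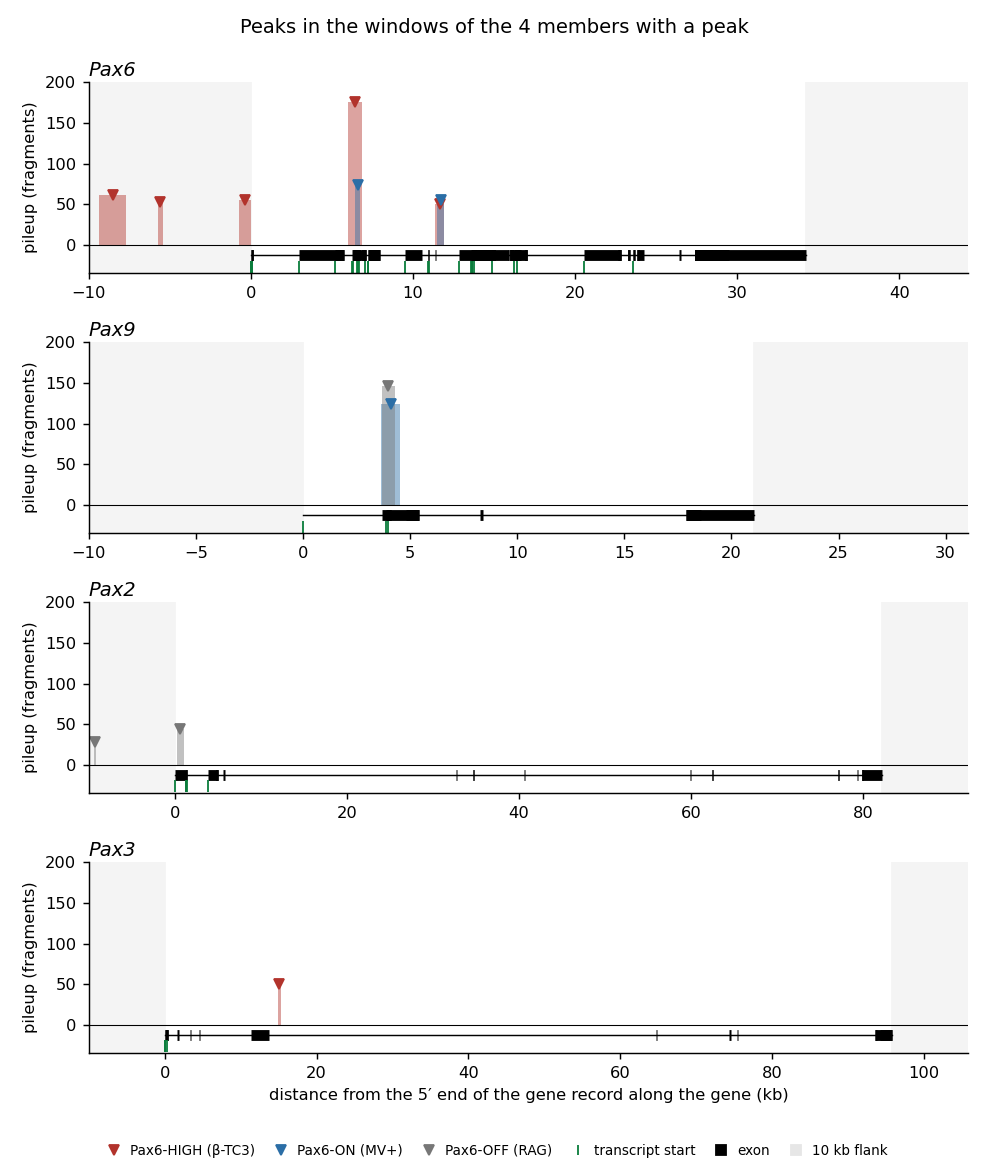
Peaks in the windows of *Pax6*, *Pax9*, *Pax2* and *Pax3* by distance (kb) from the 5′ end of the gene record, with the height of each shaded bar and its triangle giving the pileup in fragments, exons in black, transcript starts in green and the 10 kb flanks in grey. The shared *Pax6* and *Pax9* peaks overlap between lines, and the highest bars are at 175 fragments for *Pax6* in Pax6-HIGH cells and 146 fragments for *Pax9* in Pax6-OFF cells.

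*Pax4*, the close relative of *Pax6* that acts in islet beta and delta cell formation, had no peak in any line. Its record (ENSMUSG00000029706.8, chromosome 6, 28392334 to 28399353, minus strand) is the shortest of the family, at 7.02 kb. The nearest peaks were 8.08, 20.6 and 8.44 kb from the window in Pax6-HIGH, Pax6-ON and Pax6-OFF cells, and every one within 50 kb of the gene lay at a start of *Gcc1*, *Arf5* or *Snd1*. The *Snd1* start had 400 fragments in Pax6-HIGH cells, at the 99.6 percentile. Chromosome 6 held 14.9% of all Pax6-HIGH peaks and its common sites had 1.84 times the autosomal median pileup, so *Pax4* had no peak on a chromosome where the signal of that line was high.

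*Pax9* encodes a paired domain factor without a homeodomain, needed for teeth, thymus and pharyngeal pouch derivatives. The gene (ENSMUSG00000001497.11) spans 57792754 to 57813809 on the plus strand of chromosome 12. Its single site was open in Pax6-ON and Pax6-OFF cells and was among the strong peaks of both. The Pax6-ON peak spanned 57796405 to 57797290, with 124 fragments (103 to 148), 6.61-fold enrichment, a −log10 q of 56.3 and rank 906 of 9821, the 90.7 percentile. In Pax6-OFF cells it ran from 57796438 to 57797023 with 146 fragments (123 to 172), 6.21-fold enrichment, a −log10 q of 62.6 and rank 435 of 14022, the 96.9 percentile.

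The *Pax9* peaks of both lines coincided closely. The Pax6-OFF peak lay wholly inside the Pax6-ON peak, the summits were 1 bp apart, and both lay beside the annotated start at 57796626. The summits were 3.86 kb downstream of the 5′ end of the gene record, where a start is also annotated without a peak, and the peaks held the RefSeq start at 57796458. Pax6-HIGH cells had no peak within 336 kb of the window, which put *Pax9* at the 95.1 percentile of protein-coding genes by distance from a start to the nearest peak. Chromosome 12 carried 7.53% of all Pax6-OFF peaks, against 3.83% in Pax6-HIGH and 3.70% in Pax6-ON cells. Its common sites had 1.36 times the autosomal median pileup in Pax6-OFF cells and 1.02 times in Pax6-ON cells. The part of this in the Pax6-OFF rank was not tested, and within chromosome 12 alone the peak was at the 97.0 percentile. The 300 bp around the Pax6-ON summit are printed as the sequence open in both lines, from the plus strand of mm9 at chr12:57796470-57796769, with a CTCF-related word on the minus strand in capitals.
*Pax9* shared site: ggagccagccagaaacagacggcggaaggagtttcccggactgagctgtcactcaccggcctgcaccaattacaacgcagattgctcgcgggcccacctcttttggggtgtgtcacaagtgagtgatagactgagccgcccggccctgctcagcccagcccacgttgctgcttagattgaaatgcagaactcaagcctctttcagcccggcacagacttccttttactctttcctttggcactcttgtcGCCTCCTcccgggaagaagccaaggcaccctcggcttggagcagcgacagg

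*Pax1*, the relative of *Pax9* that acts in the sclerotome, had no peak within 50 kb of the gene in any line. The gene (ENSMUSG00000037034.8) spans 147187661 to 147219031 on chromosome 2, plus strand. Its nearest peaks were 103, 43.7 and 52.3 kb from the window in Pax6-HIGH, Pax6-ON and Pax6-OFF cells. The genes on either side encode the endoderm and islet factors *Nkx2-2* and *Foxa2*, and both were open at their starts in Pax6-HIGH cells alone, with 119 fragments (percentile 87.1) and 93 fragments (percentile 78.6). *Pax1* itself thus lay without a peak between called neighbours in that line, though these are far off, at 168 kb (*Nkx2-2*) and 650 kb (*Foxa2*).

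*Pax2* encodes a regulator of kidney, optic nerve and midbrain development. The gene (ENSMUSG00000004231.7) lies on chromosome 19 from 44830539 to 44912758, plus strand, and it was called in Pax6-OFF cells alone. The start-site peak ran from 44830767 to 44831580, over exon and UTR sequence 228 bp from the 5′-most start. It had 44 fragments (32.0 to 59.1), 2.9-fold enrichment, a −log10 q of 7.03 and a percentile of 37.8, so it was below the middle of that line's peaks. By fold enrichment it was at the 21.1 percentile. It overlapped the RefSeq promoter whose start is at 44831396.

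A second *Pax2* peak was called upstream in Pax6-OFF cells, from 44821179 to 44821418. It had 28 fragments (18.6 to 40.5), 2.45-fold enrichment, a −log10 q of 2.77 and a percentile of 2.0, near the lowest pileup that was called. It counted as intergenic by the GENCODE annotation used here, but it began 0.088 kb from a further start of *Pax2* in RefSeq, at 44821091. The 300 bp around its summit had 68.7% GC and a CpG observed to expected ratio of 0.90, inside the quartiles of all start-site peaks of that line. The RefSeq promoter at 44821091 itself had 54.7% GC and a ratio of 0.41, and the peak did not overlap it. Chromosome 19 stood at 1.01 times the autosomal median in Pax6-OFF cells. The window of the start-site peak is printed as the annotated *Pax2* start region that was open, from the plus strand of mm9 at chr19:44830931-44831230, with a CTCF-related word in capitals.
*Pax2* start site: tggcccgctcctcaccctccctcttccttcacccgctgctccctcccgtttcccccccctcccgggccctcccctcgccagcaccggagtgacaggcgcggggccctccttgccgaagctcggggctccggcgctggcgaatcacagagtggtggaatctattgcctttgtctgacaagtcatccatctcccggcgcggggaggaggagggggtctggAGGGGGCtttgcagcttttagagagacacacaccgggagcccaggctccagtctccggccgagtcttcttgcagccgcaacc

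Outside the *Pax2* window, Pax6-HIGH cells had 2 upstream peaks within 50 kb, at 46.5 and 31.7 kb. The farther of these, with 52 fragments, lay where Pax6-OFF cells had a peak of 35 fragments at 46.6 kb. Pax6-ON cells had none within 338 kb of the window. The protein-coding neighbours *Hif1an* and *Fam178a* were open in Pax6-HIGH and Pax6-OFF cells, *Hif1an* at percentiles of 37.0 and 35.4 and *Fam178a* at 46.2 and 56.6. Neither was called in Pax6-ON cells.

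*Pax5* and *Pax8*, the relatives of *Pax2* that act in B cells and in the thyroid and kidney, had no peak in any line. *Pax5* (ENSMUSG00000014030.9, chromosome 4, 44544017 to 44724318, minus strand) has the longest window, 200 kb. Its nearest peak in Pax6-HIGH cells, with 47 fragments, lay 11.9 kb beyond the gene's 3′ end and 1.86 kb outside the window, while Pax6-ON and Pax6-OFF cells had none within 260 and 34.8 kb. *Pax8* (ENSMUSG00000026976.8, chromosome 2, 24276071 to 24331119, minus strand) had a peak of 33 fragments 10.8 kb beyond its 3′ end in Pax6-HIGH cells, at the 11.8 percentile and just outside the window. In Pax6-ON and Pax6-OFF cells the nearest peaks were 77.4 and 68.7 kb from the window. In both genes the peak just outside the window in Pax6-HIGH cells lay beyond the 3′ end and not near a start.

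*Pax3*, which acts in neural crest and dermomyotome, had a single peak, in Pax6-HIGH cells. The gene (ENSMUSG00000004872.9) lies on the minus strand of chromosome 1 from 78097842 to 78193709. The peak ran from 78178408 to 78178849 in an intron, 15.05 kb from the gene's 5′ end, with 50 fragments (37.1 to 65.9), 3.99-fold enrichment, a −log10 q of 13.7 and a percentile of 44.8. Chromosome 1 was raised in this line, at 1.43 times the autosomal median, and within the chromosome the peak stood at the 45.4 percentile. In Pax6-OFF cells the nearest peak was intergenic, 18.6 kb upstream, with 61 fragments at the 65.8 percentile, and in Pax6-ON cells none lay within 140 kb of the window. The 300 bp around the intronic summit are printed as the only open stretch found in *Pax3*, from the plus strand of mm9 at chr1:78178514-78178813, with a CTCF-related word in capitals.
*Pax3* intronic site: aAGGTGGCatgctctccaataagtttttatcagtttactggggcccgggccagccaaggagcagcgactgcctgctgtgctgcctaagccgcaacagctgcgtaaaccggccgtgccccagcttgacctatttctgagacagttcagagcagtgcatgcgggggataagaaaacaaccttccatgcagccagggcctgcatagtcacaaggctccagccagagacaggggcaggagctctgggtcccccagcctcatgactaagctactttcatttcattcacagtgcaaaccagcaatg

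*Pax7*, the relative of *Pax3* that marks muscle satellite cells, had no peak in any line. The gene (ENSMUSG00000028736.6) spans 139292977 to 139389445 on the minus strand of chromosome 4. The nearest peak was 104 kb from the window in each of the 3 lines. From its starts the nearest peaks were 162, 210 and 134 kb away in Pax6-HIGH, Pax6-ON and Pax6-OFF cells, and the percentiles of these distances among protein-coding genes were 89.4, 74.8 and 82.2. Of its neighbours, *Klhdc7a* was open in Pax6-OFF cells and *Tas1r2* in none.

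**Figure D3:**
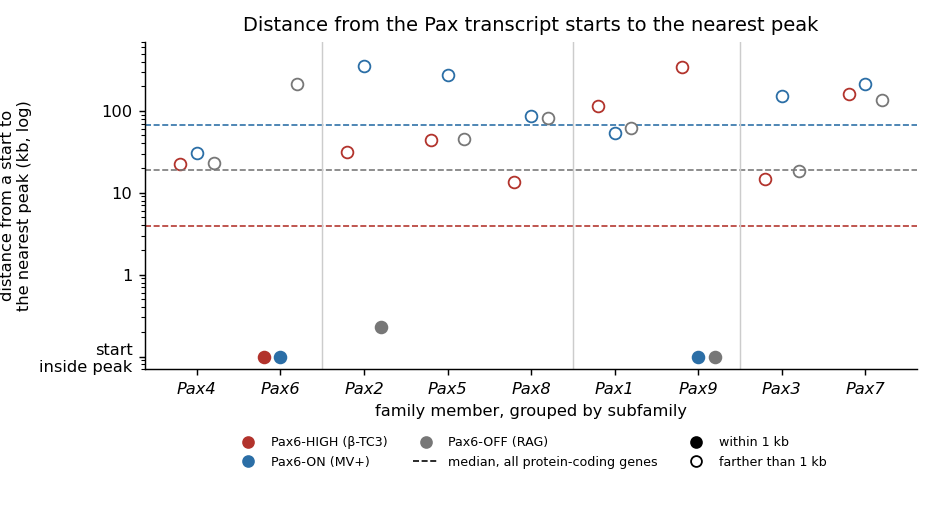
Distance (kb, log scale) from the transcript starts of each Pax gene to the nearest peak in each line, with dashed lines at the median over all protein-coding genes, which is 3.94 kb for Pax6-HIGH, 67.1 kb for Pax6-ON and 18.7 kb for Pax6-OFF cells. *Pax6* in Pax6-HIGH and Pax6-ON cells and *Pax9* in Pax6-ON and Pax6-OFF cells have a start inside a peak, *Pax2* in Pax6-OFF cells is 0.228 kb away, and the 8 members other than *Pax6* lie above the dashed Pax6-HIGH line in that line.

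Members without a start-site peak lay at very different distances from the nearest peak. In Pax6-HIGH cells the median gene had a peak 3.94 kb from a start, and the 8 members other than *Pax6* were 13.4 kb (*Pax8*) to 346 kb (*Pax9*) away. The *Pax8* distance is from an annotated start near the 3′ end of the gene, and its RefSeq promoter was 65.9 kb from the nearest peak. In Pax6-ON cells, where the median was 67.1 kb, *Pax4* at 30.6 kb and *Pax1* at 53.7 kb lay nearer than the median gene, and *Pax2* at 348 kb was farthest. In Pax6-OFF cells the members without a start-site peak ranged from 18.6 kb (*Pax3*) to 212 kb (*Pax6*), and all of them except *Pax3* lay beyond the median of 18.7 kb for all genes.

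Merging overlapping peaks of the 3 lines gave 9 sites in the Pax windows. Of these, 4 were called in Pax6-HIGH cells alone, 2 in Pax6-OFF cells alone, 2 in Pax6-HIGH and Pax6-ON cells and 1 in Pax6-ON and Pax6-OFF cells. These classes are 44.4, 22.2, 22.2 and 11.1% of the Pax sites, against 49.5, 10.5, 2.81 and 2.62% of all sites. The Pax6-HIGH share is near that of all sites, and the others rest on 1 or 2 sites each. With 9821 peaks kept in each line, 3 sites were left and none of the sites called in Pax6-HIGH or Pax6-OFF cells alone was among them. The 3 were 1 in Pax6-HIGH and Pax6-ON cells, 1 in Pax6-ON and Pax6-OFF cells and 1 in Pax6-ON cells alone. None was called in all 3 lines or in Pax6-HIGH and Pax6-OFF cells together, classes that took 12.6% and 13.0% of the 35925 sites genome-wide. The sites called in more than 1 line were 3 of 9, close to the 31.1% of all sites, and all 3 were at starts of *Pax6* or *Pax9*. The peaks amounted to 7.66, 3.83 and 3.83 per Mb of the 0.784 Mb of windows in Pax6-HIGH, Pax6-ON and Pax6-OFF cells, against 10.5, 3.66 and 5.24 per Mb genome-wide. Neither count has a replicate, so these densities are descriptions.

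**Figure D4:**
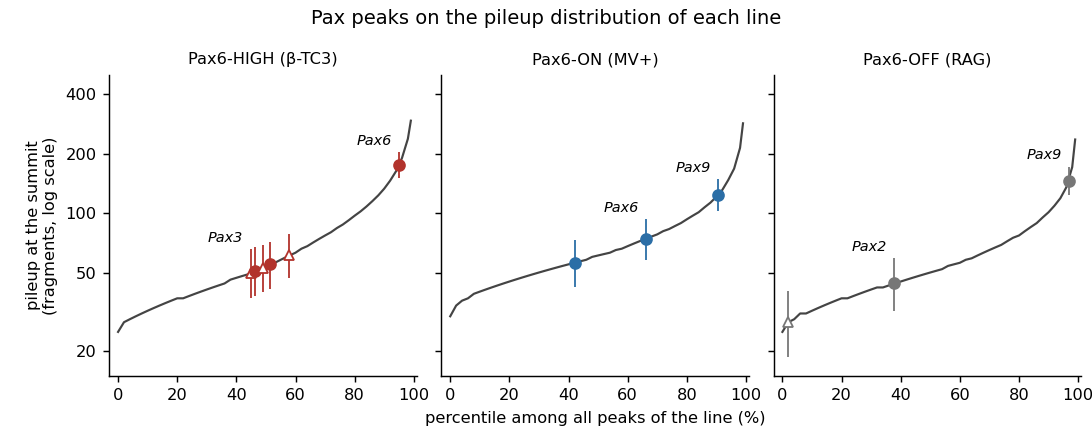
Pileup in fragments (log scale) against percentile for all peaks of each line (curve), with the Pax peaks on it as filled circles (start-site) or open triangles (other) and bars for exact 95% Poisson intervals. *Pax6* (175) in Pax6-HIGH cells and *Pax9* in Pax6-ON (124) and Pax6-OFF (146) cells lie on the upper part of the curves, while the remaining Pax peaks have pileups of 28 to 74.

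The strength of the start-site peaks depended on the measure used for the ranking. *Pax9* stayed high by each, at percentiles of 85.6 to 90.7 in Pax6-ON cells and 87.6 to 97.0 in Pax6-OFF cells by pileup, fold enrichment or −log10 q and among start-site, same-chromosome or common peaks. The *Pax6* peak of Pax6-HIGH cells was at 92.9 by −log10 q and 90.1 among start-site peaks. Against the peaks common to the 3 lines it was at 77.7, the Pax6-ON peak at 59.6, and the *Pax2* peak of Pax6-OFF cells at 13.2. The protein-coding genes most like *Pax6* by the pileup percentiles of their start-site peaks over the 3 lines were *Irx2*, *Rasgef1b* and *Bcat1*, at Euclidean distances of 2.63, 2.74 and 2.95 percentile points. *Irx2*, a homeobox gene, stood at 97.5 in Pax6-HIGH and 67.2 in Pax6-ON cells and had no start-site peak in Pax6-OFF cells. Those most like *Pax9* were *Fam84b*, *Lrig1* and *Axin2*, at distances of 4.91, 5.48 and 6.96. For *Pax2*, 31 genes shared its exact pattern, so none was singled out. With 3 lines, such likeness is a description.

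The bases under the Pax peaks were set beside those of all peaks, without a test. The median start-site peak had 65.0, 65.7 and 66.3% GC and a CpG observed to expected ratio of 0.81, 0.81 and 0.84 in Pax6-HIGH, Pax6-ON and Pax6-OFF cells. The strong *Pax6* site was less GC-rich, at 57.7% with a ratio of 0.79 in Pax6-HIGH and 57.0% with 0.87 in Pax6-ON cells. *Pax9* had 58.7% GC in both lines and ratios of 0.59 and 0.63. The second shared *Pax6* site was GC-rich with few CpG pairs, at 63.3% and 0.33 in Pax6-HIGH and 65.7% and 0.25 in Pax6-ON cells. The *Pax3* peak had 55.3% GC and 0.31, against medians of 49.3% and 0.22 for other peaks of that line.

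**Figure D5:**
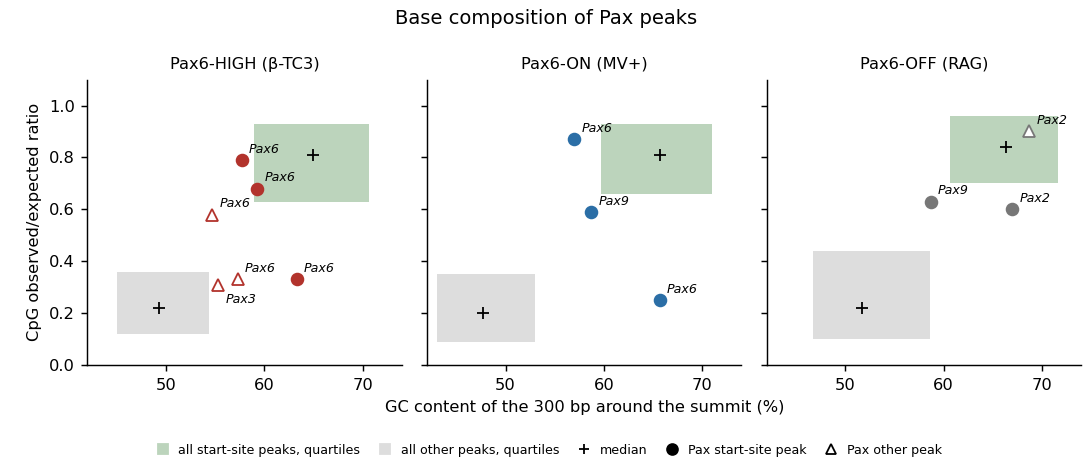
GC content (%) and CpG observed to expected ratio of the 300 bp around each Pax summit, with shaded boxes for the quartiles of all start-site peaks (green) and all other peaks (grey) of the line and crosses at their medians. The strong *Pax6* site and *Pax9* lie to the left of the start-site boxes, the second shared *Pax6* site has a ratio of 0.33 and 0.25, and the upstream *Pax2* peak lies inside the start-site box.

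Short words were searched on both strands of these windows, as a description only, and a word missing from a window says nothing about the factor. The paired domain core words GTCACGC and TTCACGC were in none of the 12 windows, which overlap at the shared sites, and they were in 3.57, 3.98 and 4.85% of all peaks of Pax6-HIGH, Pax6-ON and Pax6-OFF cells. The AP-1 word TGANTCA was also in none, against 12.2, 28.0 and 14.4%. The CTCF-related word AGGNGGC was common everywhere, in 31.0, 31.5 and 36.8% of all peaks. It was found in the *Pax3*, *Pax9*, *Pax2* start-site, second shared *Pax6* and higher upstream *Pax6* windows.

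Promoter sequence was also compared with accessibility, using 10 RefSeq promoters of 7 members (*Pax1*, *Pax2*, *Pax5*, *Pax6*, *Pax7*, *Pax8* and *Pax9*), each matched at a single place in mm9. CpG-rich promoters tend to be open in many cell types. Of the 10, 7 had a CpG ratio above 0.6, against 35.8% of 32851 promoters. Of these 7, 3 (42.9%) overlapped a peak of any line, against 76.1% of the 11677 promoters with such a ratio that matched mm9 at a single place. Over all ratios it was 3 of 10 (30.0%), against 35.3% of 31959 matched promoters. By promoter, the share was thus lower than for promoters of like CpG content and near promoters at large, without a test. The 3 were a *Pax6* promoter in Pax6-HIGH cells, a *Pax2* promoter in Pax6-OFF cells and the *Pax9* promoter in Pax6-ON and Pax6-OFF cells. These are counts of promoters and not of members, as *Pax2* entered with 3 and *Pax6* with 2. *Pax2* (0.81) and *Pax6* (1.00) each also had a CpG-rich promoter without a peak, which lowers the share by promoter. The *Pax5* promoter had a ratio of 0.88, at the 85.9 percentile, and the nearest peak of any line was 45.4 kb from its start. The *Pax1*, *Pax7* and *Pax8* promoters, at 0.64, 0.58 and 0.29, also had no peak. The *Pax6* promoter at 105522620 had the highest ratio, 1.00, and its nearest peaks were 1.64 kb away in Pax6-HIGH and 1.63 kb away in Pax6-ON cells.

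Pax proteins work in a network with Eya and Dach proteins, with homeodomain factors such as those encoded by *Six2* and *Six3*, and with Groucho-type corepressors of the Tle group, and *Paxip1* encodes a partner protein of the transactivating domain. Of 18 such genes found in the annotation, 10 (55.6%), 4 (22.2%) and 9 (50.0%) had a start-site peak in Pax6-HIGH, Pax6-ON and Pax6-OFF cells, somewhat above the shares of all protein-coding genes in Pax6-HIGH and Pax6-OFF cells and near it in Pax6-ON cells. These shares have no replicate and were not tested against that background.

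*Tle1*, *Tle4* and *Paxip1* were open in all 3 lines, and *Tle1* and *Tle4* were strong, at percentiles of 94.4 to 99.2. As called, the homeodomain partners split by line. *Six4* and *Six5*, and the corepressor gene *Tle6*, were open in Pax6-HIGH and Pax6-OFF cells alone, with *Six4* at 38 and 64 fragments (percentiles 23.2 and 69.1). *Six5* had 56 and 33 fragments and *Tle6* had 50 and 47. *Six4* lies on chromosome 12, as *Pax9* does. *Six2*, a kidney progenitor gene, was open in Pax6-ON cells alone, with 61 fragments. *Eya1*, which encodes a phosphatase coactivator, and the repressor genes *Dach1* and *Dach2* were open in Pax6-HIGH cells alone, with 105, 84 and 118 fragments. *Eya2* and *Eya3* were open in Pax6-OFF cells alone, with 35 and 33 fragments at percentiles of 16.0 and 11.2. With 9821 peaks kept in each line, *Six4* and *Tle6* were left in Pax6-OFF cells alone, and *Six5*, *Eya2* and *Eya3* in no line. The split of these genes therefore cannot be told apart from the longer peak lists of Pax6-HIGH and Pax6-OFF cells. *Eya1*, *Dach1* and *Dach2* stayed in Pax6-HIGH cells alone and *Six2* in Pax6-ON cells alone. *Eya1* lies on chromosome 1, where common sites had 1.43 times the autosomal median pileup in Pax6-HIGH cells. The part of this in its call was not tested. The lens and eye factor genes *Six3* and *Six6* had no start-site peak in any line, nor did *Eya4*, *Tle2* or *Tle3*.

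Of the neighbours of the members, *Rcn1* and *Immp1l*, 270 and 201 kb from *Pax6*, were open in all 3 lines. Pax6-OFF cells thus had start-site peaks on both sides of a window without any. By the position the paper gives, the *Elp4* promoter lies about where *Immp1l* begins. The peak there cannot be assigned to *Immp1l* alone. *Prps1l3*, 518 kb beyond *Pax9*, was open in all 3 lines too, and *Nkx2-9* on the other side of *Pax9* in none. *Snd1* beside *Pax4* was open in all 3 lines and *Fscn3* in none. Around *Pax3*, *Epha4* (586 kb away) was open in Pax6-HIGH and Pax6-ON cells and *Sgpp2* (113 kb away) in Pax6-HIGH cells. Around *Pax5*, *Melk* was open in Pax6-HIGH cells and *Zcchc7* in Pax6-HIGH and Pax6-OFF cells, and *Psd4* and *Cacna1b* around *Pax8* were open in none. No other gene with a start inside a Pax window had a start-site peak, including the antisense transcript *Pax6os1*.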

How the data were processed

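Duplicate ATAC-seq libraries were made from each of the 3 lines. The authors trimmed the reads with Trim Galore 0.4.1, aligned them to mm9 with Bowtie2 2.2.6, handled them with SAMtools 1.6 and bedtools, and called peaks with MACS2 2.1.1.20160309, per the file headers and labels. Whole fragments were used without a shift to the transposase cut sites, which can widen peaks. The call kept every duplicate in its input. The input names refer to a Picard duplicate step, and whether duplicates had been taken out there is not given in the sources used here, which bears on each pileup, interval and rank. Both replicates went into 1 call per line, with no control library, a q-value cut of 0.05 and the small local region option (slocal) set to 6250 bp. Whether that option entered the background of these calls, made without a control, was not checked. The deposited pileup is a signal, the whole number of fragments at the summit, not scaled for depth. Fold enrichment, as deposited, is a ratio of pileup to background, each plus 1. The authors' p-values and q-values are deposited as −log10 values. The narrowPeak tables held the same intervals.

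For this report, Python 3.11.15 with pandas 2.3.3 was used. Peaks were overlapped (1 bp or more) with windows of NCBIM37 genes from GENCODE M1, with sequence read by pysam 0.24.0. Percentiles count the peaks below, with ties placed at their middle. RefSeq promoters reach from 250 bp before to 50 bp after a start and come from GRCm38.p6, placed in mm9 by exact sequence match. Scripts were tested on simulated data, 2000 genes per line, and all start-site calls were recovered. No test was run, because each line has n = 1. The members and gene lists were chosen with earlier results of these data known. The text names all members, all start-site peaks, the strongest other peak, listed genes called in some lines (some items are not reported here), the flanking genes and the most alike genes. *Pagr1a* and *Sox1*, listed as a partner and a lens marker, had no record by that name in the annotation used. The locus-specific peak calls, expression, FISH and Capture-C data were not analysed here.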

Additional observations from a re-analysis of the deposited data

How the results depend on the processing

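No paired analysis was possible because both replicates of a line were pooled in 1 call, and for the same reason leaving out a replicate could not be run. The replicate spread at each Pax site is thus unknown, and the calls do not reach below 25 to 30 fragments. Of 92 alternative values, 58 stayed within 1.5 times the reported count or within the 95% Wilson interval of the reported percentile. All 10 values from the narrowPeak tables are among the 58, but those tables held the same intervals, so these 10 could not differ. The Wilson interval reflects the number of peaks in a line and covers no replicate or measurement error. Keeping 9821 peaks per line left 1 member with a start-site peak in Pax6-OFF cells, 1 member with any peak in Pax6-HIGH cells (*Pax6*) and 1 in Pax6-OFF cells (*Pax9*), with 1 peak in the windows in each of these lines, and 6 partner genes in Pax6-HIGH cells. Taking the 5′ end of the gene record as the only start left Pax6-ON cells with 0 members and Pax6-OFF cells with 1, since the shared *Pax6* and *Pax9* peaks are at internal starts. RefSeq starts, an alternative chosen after seeing the data, left 1 in Pax6-ON cells (*Pax9*). Flanks of 50 kb raised the members with any peak to 6 (Pax6-HIGH) and 5 (Pax6-OFF) and the peaks to 14 and 9. Ranked by fold enrichment, the percentiles were 21.1 for *Pax2* in Pax6-OFF, 79.0 and 69.9 for *Pax6* in Pax6-HIGH and Pax6-ON, and 85.6 and 87.6 for *Pax9* in Pax6-ON and Pax6-OFF cells. By −log10 q they were 26.0, 92.9, 69.0, 89.5 and 95.8 in the same order, and among peaks common to the 3 lines 13.2, 77.7, 59.6, 86.0 and 92.2. Among start-site peaks, *Pax2* was at 28.4, *Pax6* at 90.1 and 61.6, and *Pax9* in Pax6-ON cells at 87.9. Within the chromosome, *Pax6* in Pax6-HIGH cells was at 97.1 and *Pax9* in Pax6-ON cells at 88.6. The causes of these moves in rank were not tested.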
